A study of Homo sapiens with 8 samples.

Results

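The response to ciclopirox was described in NB1691 and SKNBE2, the neuroblastoma lines whose Myc status the labels give as N-Myc and which are not derived from SKNAS. These were 4 of the 8 samples of the series, chosen by their cell line: each line gave 1 vehicle array and 1 ciclopirox array. The other 4 samples came from SKNAS, labelled c-Myc, and SKNAS/shHIF1a, a derivative carrying an shRNA against HIF1A that is labelled N-Myc. All cells were grown in RPMI medium with serum and received either vehicle or 2.5 µM ciclopirox for 48 h. Total RNA was hybridised to an Affymetrix expression array, and the unit throughout is the deposited RMA signal on the log2 scale, so that a difference of 1 is a 2-fold difference. Each response is ciclopirox minus vehicle within a line. For a gene that differed the same way in both lines, the smaller of its 2 changes was taken as its conservative size. The series title names the Myc pathway and the histone demethylase JMJD2B, now KDM4B, as the targets of ciclopirox.

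Ciclopirox is a hydroxypyridone antifungal that binds iron. Iron is the cofactor of a large family of dioxygenases that includes the prolyl hydroxylases that mark HIF proteins for destruction, the Jumonji histone demethylases, the collagen hydroxylases and the hydroxylase that matures the translation factor EIF5A. Cells with less usable iron stabilise HIF, which switches on genes of low-oxygen metabolism, and they may also engage the integrated stress response, in which the transcription factor ATF4 turns on amino acid supply genes and other stress genes. MYCN drives growth, ribosome production and proliferation in neuroblastoma of the sympathetic lineage.

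The sympathetic identity of both lines was visible in the arrays. Under vehicle, PHOX2A, GATA3, ISL1, DBH, DDC, CHGA, CHGB, STMN2 and ELAVL4 had log2 signals between 9.94 and 13.15 in the 2 lines, TH had 7.16 in NB1691 and 7.99 in SKNBE2, and HAND2 was low at 5.30 and 4.94. The signal of MYCN was 12.05 in NB1691 and 12.48 in SKNBE2 under vehicle, while that of MYC was 2.70 and 2.66, below the level of 3.21 that was required of a tested gene's mean over all 8 arrays. In SKNAS and SKNAS/shHIF1a under vehicle MYCN had 2.77 and 5.41 and MYC had 10.16 and 9.86, so NB1691 and SKNBE2 are called the MYCN-high lines. Many markers of other cell types did not reach that level over the 8 arrays: 4 of 14 lymphoid and myeloid, 9 of 15 epithelial, 8 of 12 endothelial and 2 of 8 Schwann cell and glial markers reached it, and all 11 fibroblast markers did. Of those that did, fewer reached it in the vehicle mean of NB1691 and SKNBE2. They were 3 lymphoid and myeloid, 6 epithelial, 5 endothelial, 2 Schwann cell and glial and 10 fibroblast markers. In bulk RNA, fewer cells of a type and less RNA per cell cannot be told apart. The array medians lay between 3.47 and 3.52. The labels do not state separate cultures for the arrays, each line is a single cell line, and the number of arrays limits the precision. Values with ± are limma means over n = 2 lines with moderated standard errors. Their variance draws on all genes tested as well as on the 2 lines, so they are not the spread between the lines alone.

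Of 14517 genes tested, limma with the cell line as a block called 0 at an adjusted p under 0.05 (0%). The smallest adjusted p was 0.0697, for GDF15, and an unadjusted p under 0.05 was reached by 1298 genes (8.94%), of which 614 were higher (4.23%) and 684 lower (4.71%). GDF15 alone was called when the level filter was raised to the 60th percentile (adjusted p = 0.0418), and GDF15, CSTA and COXFA4L2 were called by limma with an intensity trend (adjusted p of 0.00907, 0.0287 and 0.0287). With 2 lines the smallest p of an exact sign-flip test is p = 0.5. The genes below are therefore described by their values in each line.

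By size, 68 genes were at least 2-fold higher in both lines (0.468% of genes tested), 53 were at least 2-fold lower in both (0.365%), and 10 were at least 2-fold different in opposite directions (0.0689%), 2 of them higher in NB1691 (0.0138%) and 8 higher in SKNBE2 (0.0551%). At 4-fold, 7 genes were higher in both (0.0482%) and 0 were lower (0%). These 7 were GDF15, CSTA, COXFA4L2, ACTA2, ATF5, KLF11 and HRK. The number of genes past 2-fold within a single line was larger in NB1691, which had 481 genes at least 2-fold higher (3.31%) and 743 lower (5.12%), than in SKNBE2, with 306 (2.11%) and 181 (1.25%). In direction alone, 3909 genes were higher in both (26.9%), 4369 were lower in both (30.1%) and 6239 went opposite ways (43%). Across the 14517 genes, which are not independent and share arrays within a line, the 2 lines' changes had a Pearson r of 0.253 and a Spearman rho of 0.21, as a description. When the signal of a gene was taken as the mean of its probe sets instead of the brightest one, 40 genes were at least 2-fold higher in both lines and 29 lower, of which 35 and 29 were among the 68 and 53. Of the 30 genes furthest above or below vehicle, 15 each way, 14 had a mean change over both lines that was smaller by over 1.5 times with that mean, as had 52 of the 121 genes at least 2-fold different in both, and the sign of the mean change stayed the same in each. These values are given below as probe set means, and they average all probe sets of a gene at any level. Counts of a gene's probe sets elsewhere are of those whose own mean over the 8 arrays reached 3.21. At the edge of the threshold, SMAD7 was the last gene inside on the higher side and CAMK2D the first outside, with WNT3 and LOC729683 in those places on the lower side.

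**Figure D1:**
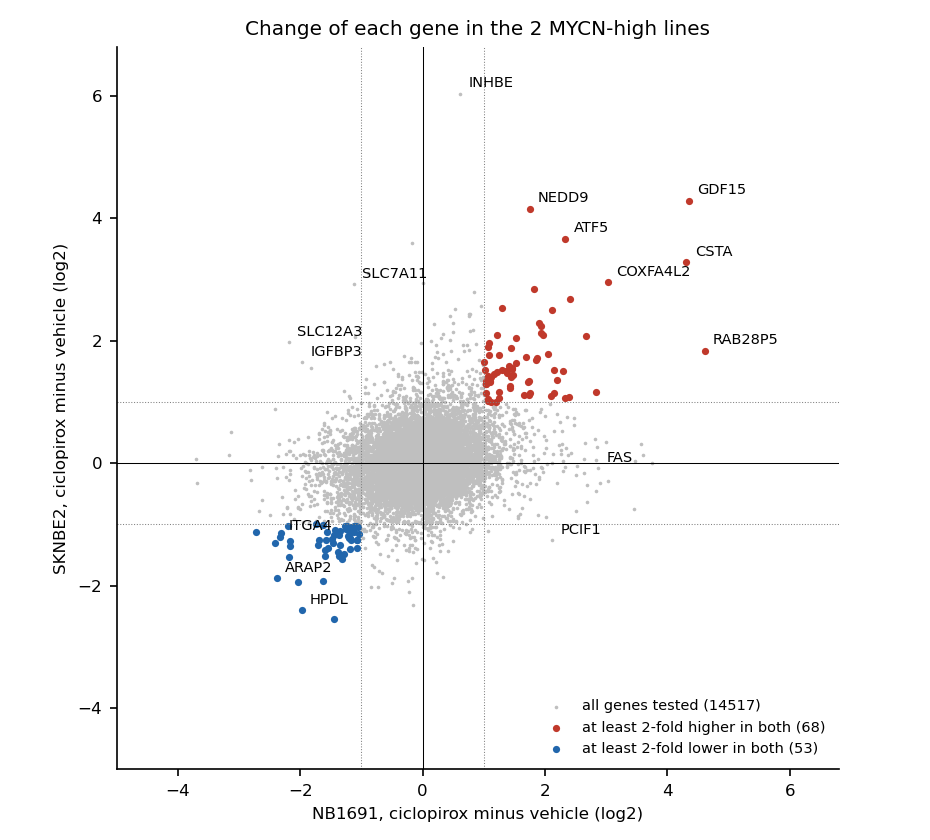
Each point is a gene, with its change in NB1691 on the horizontal axis and in SKNBE2 on the vertical axis (ciclopirox minus vehicle, log2). Dotted lines mark 2-fold. The 68 red genes lie past 2-fold on the higher side of both axes and the 53 blue genes past it on the lower side. GDF15 stands at 4.35 and 4.29, INHBE is far up in SKNBE2 alone, and FAS is far right in NB1691 alone.

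GDF15, a secreted stress cytokine of the TGF-beta superfamily, had the largest conservative size. Its log2 signal was 7.83 with vehicle and 12.19 with ciclopirox in NB1691, and 3.36 and 7.65 in SKNBE2. The changes were 4.35 and 4.29, a conservative fold of 19.6 and a mean of 4.32 ± 0.21, from vehicle levels that were far apart. CSTA, the cysteine protease inhibitor cystatin A, had 3.29 and 7.60 in NB1691 and 2.73 and 6.02 in SKNBE2. COXFA4L2, a mitochondrial protein once named NDUFA4L2 and a known HIF target, had 3.13 and 6.16 in NB1691 and 3.29 and 6.26 in SKNBE2. The vehicle signals of CSTA and COXFA4L2 lay between 2.73 and 3.29, around the level of 3.21 required of a tested gene, and the 3.36 of GDF15 in SKNBE2 was little above it, so these folds against vehicle are poorly bounded.

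Other genes among the 15 furthest above vehicle had varied roles. ACTA2, smooth muscle actin, had 5.77 and 8.18 in NB1691 and 6.08 and 8.76 in SKNBE2, a mean of 2.55 ± 0.22, and the mean of its 3 probe sets gave 0.85. ACTA2 also marks fibroblasts. The summed linear signal of the 11 fibroblast markers was 680 with vehicle and 815 with ciclopirox in NB1691 and 1340 and 1260 in SKNBE2. Of these markers 1 was higher in both lines, ACTA2, and 4 were lower, with the collagen COL1A1 at -0.86 and -0.98, the matrix protein DCN at -0.17 and -0.98 and the receptor PDGFRB at -1.33 and -0.34, and the part of such cells in the ACTA2 value was not tested. The probe set mean was -0.33 for COL1A1 and for DCN. In NB1691 the signals of DCN were 3.10 with vehicle and 2.93 with ciclopirox, under the level required of a tested gene. SYN2, the vesicle protein synapsin II, had changes of 1.90 in NB1691 and 2.29 in SKNBE2, with the same direction in all 4 of its counted probe sets, and a probe set mean of 0.85 against 2.09. STXBP6, a regulator of vesicle fusion, had 1.82 and 2.85, with a probe set mean of 0.94. Its vehicle signals of 3.20 in NB1691 and 3.18 in SKNBE2 lay under the level required of a tested gene, so its folds are poorly bounded. NEDD9, a focal adhesion scaffold, had 1.75 and 4.16, and 1 of its 2 probe sets was higher in both lines, with a probe set mean of 1.01. BDKRB2, the bradykinin B2 receptor, had 2.04 and 1.78. RAB28P5, a pseudogene of RAB28 on the X chromosome, had 4.61 and 1.84, and a probe set for such a copy may also catch RNA of its parent.

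**Figure D2:**
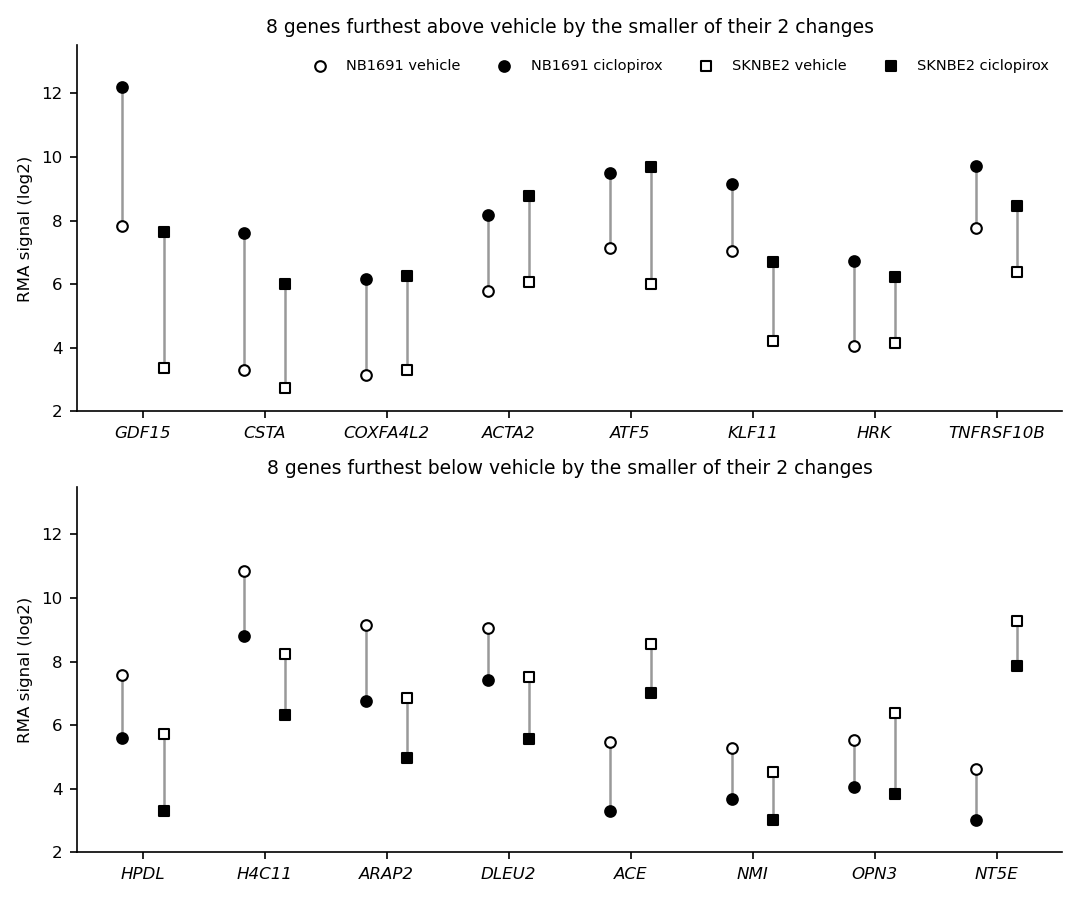
RMA signal (log2) on each array for the 8 genes furthest above vehicle and the 8 furthest below it by the smaller of their 2 changes. Open symbols are vehicle, filled symbols ciclopirox, circles NB1691 and squares SKNBE2, 1 array each, and grey lines join the arrays of a line. The SKNBE2 array with ciclopirox reads 7.65 for GDF15, close to the NB1691 vehicle array at 7.83, and NT5E sits much lower in NB1691 than in SKNBE2 under both treatments.

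Most genes of the integrated stress response list were higher in both lines. Of 23 tested members, 17 were higher in both (73.9%, against 26.9% of all genes), 0 were lower in both (against 30.1%) and 6 were split, and 14 had an unadjusted p under 0.05 on the higher side, against 4.23%. The median change was 0.47 in NB1691 and 1.66 in SKNBE2, against -0.02 and -0.01 over all genes, and limma called 0 of them. ATF5, a transcription factor made when the response is on, had log2 signals of 7.15 and 9.48 in NB1691 and 6.0 and 9.67 in SKNBE2, a mean of 3.0 ± 0.37, and 3 of its 4 probe sets were higher in both lines, with a probe set mean of 1.59. NUPR1, a small stress-induced nuclear protein, had 2.79 and 4.74 in NB1691 and 3.20 and 5.32 in SKNBE2, with both vehicle signals under the level required of a tested gene. STC2, a secreted glycoprotein, had changes of 1.24 and 1.76.

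Other stress genes had unlike values in the 2 lines. ATF4 itself had changes of 0.42 in NB1691 and 0.57 in SKNBE2. The following were chosen after their values were seen. PPP1R15A, the phosphatase subunit that ends the response, had 2.15 and 1.15. DDIT3, the factor CHOP, had 0.66 and 1.93, and TRIB3, a pseudokinase it induces, had 0.49 and 2.29. The cystine transporter SLC7A11 had -1.13 in NB1691 and 2.93 in SKNBE2, and CHAC1, which degrades glutathione, had -0.90 and 3.10. The 6 split members of the 23 tested were all lower in NB1691 and higher in SKNBE2, a pattern of 22% of all genes. Among all genes that went opposite ways, 3191 of 6239 had that pattern. The difference between the lines was not tested because each has 1 array per treatment. INHBE, an activin subunit and ATF4 target, was already high in NB1691 under vehicle at 10.96 and had 11.57 with ciclopirox, while SKNBE2 had 2.75 and 8.79, the largest change of any gene in that line.

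Most amino acid supply and ER folding genes were higher in both lines, with smaller median changes. Among 29 amino acid supply and tRNA synthetase genes, 17 were higher in both lines (58.6%, against 26.9% of all genes) and 1 lower (3.45%, against 30.1%). Their medians were 0.15 in NB1691 and 0.49 in SKNBE2. SLC1A4, a neutral amino acid transporter, had 0.95 and 2.57 with a probe set mean of 1.15, SHMT2, the mitochondrial serine hydroxymethyltransferase, had 1.18 and 0.89, and WARS1, the tryptophan tRNA synthetase, had 0.84 and 1.17. Of 23 ER chaperone and unfolded protein genes, 14 were higher in both lines (60.9%, against 26.9%) and 5 lower (21.7%, against 30.1%). DNAJB9, an ER co-chaperone, had 1.04 and 1.15, with all 3 probe sets higher in both lines. SEL1L, of the ER degradation complex, had 0.77 and 1.11, and HERPUD1, of the same pathway, 0.76 and 1.42. The cytosolic heat shock list, which also holds the mitochondrial chaperone HSPE1, had the opposite tendency. Of its 12 members, 0 were higher in both lines (0%, against 26.9%) and 7 lower (58.3%, against 30.1%). The lower members included the small heat shock protein HSPB1 at -0.21 and -1.34, HSPE1 at -0.83 and -0.28 and the chaperone DNAJA1 at -0.33 and -0.49.

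Most genes of the HIF target list were also higher in both lines. Of 40 tested, 29 were higher in both, 1 was lower in both (HILPDA, at -0.42 and -0.01) and 20 had an unadjusted p under 0.05 on the higher side, against 26.9%, 30.1% and 4.23% of all genes, with 6 past 2-fold in both and 0 called by limma. The median was 0.49 in NB1691 and 0.91 in SKNBE2. BHLHE40, a transcriptional repressor, had log2 signals of 3.98 and 5.82 in NB1691 and 5.74 and 7.43 in SKNBE2. RORA, a nuclear receptor, had 5.21 and 6.67 in NB1691 and 5.07 and 6.60 in SKNBE2, although 1 of its 6 probe sets was lower in both lines and 4 were higher. P4HA2, a collagen prolyl hydroxylase subunit, had changes of 2.33 and 1.06. Averaged over probe sets, the mean change was 1.00 for BHLHE40, 0.58 for RORA and 1.12 for P4HA2.

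Other HIF targets had uneven values in the 2 lines. VEGFA, the angiogenic growth factor, had 0.34 in NB1691 and 1.79 in SKNBE2, with all 4 probe sets higher in both lines. GBE1, the glycogen branching enzyme, had 2.83 and 1.16 and STC1, a secreted glycoprotein, 1.65 and 1.11, both chosen after their values were seen. The vehicle signal of STC1 in NB1691 was 2.90, under the level required of a tested gene. The oxygen sensor EGLN1, itself a HIF target, had 0.83 and 0.55, and its relative EGLN3 had -0.70 and 0.41. The changes of the HIF alpha subunit transcripts were small: HIF1A had 0.07 and -0.13 and EPAS1, which encodes HIF-2 alpha, -0.42 and -0.10. Among glycolysis enzymes, 10 of 18 were higher in both lines (55.6%, against 26.9% of all genes) and 1 lower (5.56%, against 30.1%). PFKP, a phosphofructokinase, had 0.72 and 0.95, the aldolase ALDOC 1.99 and 0.44 and the enolase ENO2 1.00 and 0.40. The collagen hydroxylase and lysyl oxidase list had 8 of 13 higher in both lines (61.5%, against 26.9%) and 1 lower (7.69%, against 30.1%). The higher members were led after P4HA2 by P4HA1 at 2.0 and 0.77 and LOXL2 at 0.86 and 0.62. The probe set mean was 0.36 for EGLN1, 0.46 for PFKP, 0.56 for P4HA1 and 0.21 for LOXL2.

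**Figure D3:**
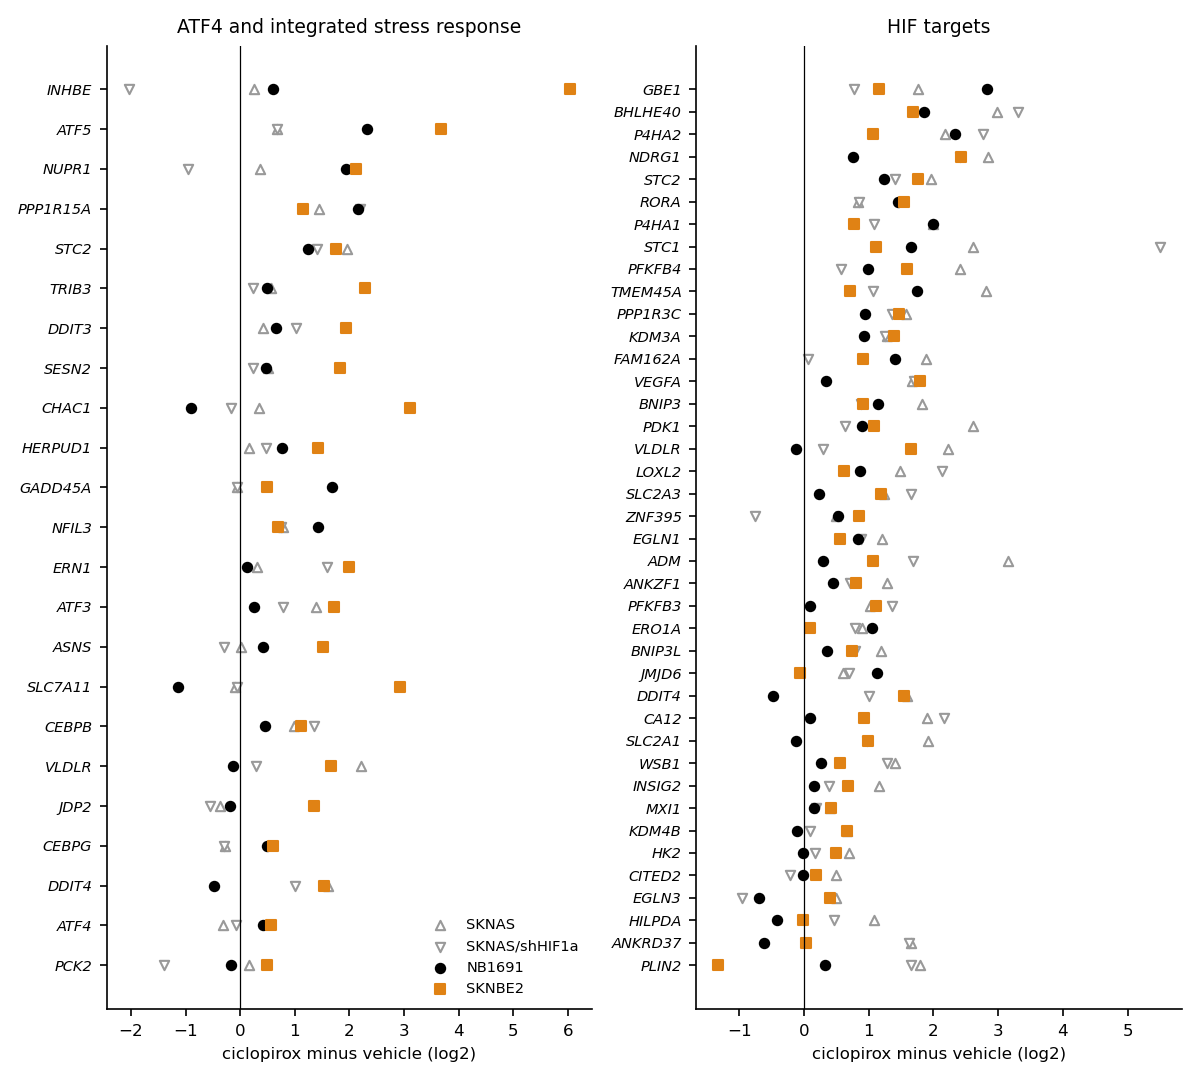
Change (ciclopirox minus vehicle, log2) of each tested member of the ATF4 list (left) and the HIF target list (right), ordered by the mean of NB1691 (black circles) and SKNBE2 (orange squares), with SKNAS and SKNAS/shHIF1a as grey triangles. In the ATF4 list the orange squares mostly lie to the right of the black circles, with SLC7A11 and CHAC1 on opposite sides of 0. In the HIF list the grey triangles often lie further right, as for STC1.

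The promoters of 5 of these genes are shown because their letters bear on the HIF, MYC-type and ATF4 motifs, as 250 bases ending just before the RefSeq gene start of build GRCh38.p14, 5′ to 3′ on the gene's strand. Capitals mark CACGTG, the E-box read by MYC-type and related factors, in BHLHE40 and ARRDC4, the HIF core ACGTG on either strand in BHLHE40, the HIF core GCGTG in KDM3A and the ATF4-type element TGATGNAA in HRK. GDF15 (chr19:18385908-18386157, plus strand) held none of these 4 motifs in this window. BHLHE40 (chr3:4979187-4979436, plus strand) held CACGTG at -245 and further ACGTG cores at -174 and -149. KDM3A (chr2:86441121-86441370, plus strand) held GCGTG at -26, HRK (chr12:116881442-116881691, minus strand) held TGATGTAA at -75, and ARRDC4 (chr15:97960453-97960702, plus strand) held CACGTG at -210, with GCGTG cores left in lower case.
GDF15: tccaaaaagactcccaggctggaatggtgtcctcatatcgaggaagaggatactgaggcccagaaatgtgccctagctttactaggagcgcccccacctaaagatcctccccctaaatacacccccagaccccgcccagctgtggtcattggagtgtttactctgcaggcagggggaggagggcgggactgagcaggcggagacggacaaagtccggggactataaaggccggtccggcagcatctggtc
BHLHE40: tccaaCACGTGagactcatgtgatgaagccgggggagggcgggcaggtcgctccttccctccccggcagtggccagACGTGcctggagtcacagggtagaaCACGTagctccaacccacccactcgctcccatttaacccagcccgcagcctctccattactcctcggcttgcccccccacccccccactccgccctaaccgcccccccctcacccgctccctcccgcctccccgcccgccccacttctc
KDM3A: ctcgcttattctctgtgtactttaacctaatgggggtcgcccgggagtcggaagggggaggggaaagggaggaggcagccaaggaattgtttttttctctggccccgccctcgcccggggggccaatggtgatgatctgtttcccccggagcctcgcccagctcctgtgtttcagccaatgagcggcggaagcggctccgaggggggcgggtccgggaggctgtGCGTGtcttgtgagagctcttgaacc
HRK: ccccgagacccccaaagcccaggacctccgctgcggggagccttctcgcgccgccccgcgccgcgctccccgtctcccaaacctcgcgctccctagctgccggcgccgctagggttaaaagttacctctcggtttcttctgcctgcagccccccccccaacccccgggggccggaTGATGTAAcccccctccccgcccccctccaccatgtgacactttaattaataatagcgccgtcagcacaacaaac
ARRDC4: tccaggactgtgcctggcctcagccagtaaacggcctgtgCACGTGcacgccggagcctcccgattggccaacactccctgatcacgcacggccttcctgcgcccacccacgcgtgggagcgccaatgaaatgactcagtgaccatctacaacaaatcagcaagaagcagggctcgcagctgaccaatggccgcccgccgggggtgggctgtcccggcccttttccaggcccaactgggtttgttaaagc

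Motif shares were counted on both strands in windows of the same length. CACGTG, which contains ACGTG on both strands, was in 8 of the 56 promoters found for the 68 higher genes (14.3%), against 8.77% of the 11666 found for tested genes and 6.49% of all 27305 promoters. ACGTG or GCGTG was in 55.4% of the higher genes' promoters and in 62.5% of the 48 found for the 53 lower genes, against 55.7% of tested genes. TGATGNAA was in 2 of the 56 (3.57%), against 1.63%. Among list members, ACGTG was in 16 of 30 HIF target promoters (53.3%), against 22.9% of tested genes, and TGATGNAA in 4 of 19 stress response promoters (21.1%). These lists were drawn from known targets, so their motif content is a property of the lists. A match is no evidence of binding, and the absence of a match says nothing about a factor.

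Of 27 p53 targets tested, 13 were higher in both lines (48.1%, against 26.9% of all genes) and 2 lower (7.41%, against 30.1%). The other 12 of the 27 were all higher in NB1691 and lower in SKNBE2, a pattern of 21% of all genes. The difference between the lines was not tested. The median was 0.76 in NB1691 and -0.08 in SKNBE2. The shared members included GDF15, TNFRSF10B and CDKN1A. TNFRSF10B, a death receptor for TRAIL, had log2 signals of 7.77 and 9.72 in NB1691 and 6.38 and 8.46 in SKNBE2, with 2 of its 3 probe sets higher in both. CDKN1A, the cyclin-dependent kinase inhibitor p21, had 9.17 and 10.89 in NB1691 and 5.58 and 6.90 in SKNBE2. Among the split members, the death receptor FAS, chosen after its values were seen, had 2.87 and -0.08. MDM2, which degrades p53, had 12.61 and 12.84 in NB1691 and 8.93 and 8.85 in SKNBE2, so its level was far higher in NB1691 under both treatments. SPATA18, a mitochondrial quality control gene, was lower in both at -1.07 and -1.26. Averaged over probe sets, the mean change was 1.08 for TNFRSF10B, 0.72 for CDKN1A, 0.49 for MDM2 and -0.72 for SPATA18.

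Cell death regulators of the BCL2 family had 10 of 20 members higher in both lines (50%, against 26.9% of all genes) and 1 lower (5%, against 30.1%). HRK, a BH3-only activator of death, had log2 signals of 4.07 and 6.74 in NB1691 and 4.15 and 6.23 in SKNBE2, a mean of 2.38 ± 0.25, and the mean of its 3 probe sets gave 1.05. BNIP3, a mitophagy receptor and HIF target, had changes of 1.15 and 0.91, and BCL2L2, which opposes death, 0.67 and 0.79 with a probe set mean of 0.47. MCL1, which also opposes death, had -0.25 and -0.05. The TXNIP family, which restrains glucose uptake, had 3 of 5 members higher in both lines (60%, against 26.9%) and 0 lower (0%, against 30.1%). ARRDC4 had 7.02 and 8.95 in NB1691 and 7.59 and 9.82 in SKNBE2, TXNIP had 10.41 and 11.86 and 9.28 and 11.16 with all 3 probe sets higher in both lines, and ARRDC3 had changes of 0.88 and 0.89.

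Of the 12 ligands of the TGF-beta superfamily tested, 3 were higher in both lines (25%, against 26.9% of all genes), 2 were lower (16.7%, against 30.1%) and 7 were split, with medians of 0.09 in NB1691 and -0.04 in SKNBE2. The higher ligands were GDF15, TGFB1 and INHBE, and the lower ones the bone morphogenetic protein BMP7 at -0.43 and -0.49 and GDF11 at -1.16 and -0.07. TGFB1 had 1.93 and 0.89, and 1 of its 2 probe sets was higher in both lines, with a probe set mean of 0.71. Its vehicle signal in NB1691 was 3.13, under the level required of a tested gene. The genes named next are not ligands and were not on that list. KLF11, a TGF-beta inducible repressor, had log2 signals of 7.03 and 9.14 in NB1691 and 4.21 and 6.71 in SKNBE2. Its probe set mean was 1.45 against 2.31. KLF10, of the same family, had changes of 1.45 and 1.41. SMAD7 and ID1, a feedback inhibitor and a target of this signalling, had 1.2 and 1.00 and 2.39 and 1.08, and both were chosen after their values were seen. Immediate early genes were higher in both lines in 16 of 23 cases (69.6%, against 26.9% of all genes) and lower in 1 (4.35%, against 30.1%). A vehicle mean over NB1691 and SKNBE2 at the level required of a tested gene was found for 17 of the 23. The pluripotency factor KLF4 had 0.92 and 1.69 (probe set mean 0.67). Its vehicle signals were 2.96 in NB1691 and 3.18 in SKNBE2, under the level required of a tested gene. NR4A2, a nuclear receptor and the 1 member lower in both, had -0.29 and -0.53.

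Some transporters that bring iron into the cell or its mitochondria were higher in both lines. TFRC, the transferrin receptor, had log2 signals of 11.68 and 12.92 in NB1691 and 12.09 and 12.87 in SKNBE2, with all 4 probe sets higher in both. SLC11A2, the iron transporter DMT1, had changes of 0.93 and 0.86, with 3 of 4 probe sets higher and 1 lower in both lines, and SLC25A37, the mitochondrial iron importer mitoferrin, 1.51 and 0.88. SLC40A1, the exporter ferroportin, had -0.78 and -0.30, and SLC39A8, a zinc and iron importer, -0.67 and -0.55. Of 21 tested iron genes, 11 were higher in both lines (52.4%, against 26.9% of all genes) and 4 lower (19%, against 30.1%). Of 28 genes that build iron-sulfur clusters and heme, 12 were lower in both lines (42.9%, against 30.1% of all genes) and 4 higher (14.3%, against 26.9%), and 1 had an unadjusted p under 0.05 on the lower side and 0 on the higher side, with the cysteine desulfurase NFS1 at -0.71 and -0.62 and the heme enzymes UROD at -0.38 and -0.62 and PPOX at -0.64 and -0.35. ALAS1, the first enzyme of heme synthesis, had 0.74 and 0.33. The probe set mean was 0.34 for SLC11A2, 0.49 for SLC25A37, -0.35 for SLC40A1, -0.21 for SLC39A8, -0.33 for NFS1, -0.29 for UROD and -0.03 for PPOX.

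Among 24 histone demethylases, 12 were higher in both lines (50%, against 26.9% of all genes) and 6 lower (25%, against 30.1%). With the mean of probe sets, 8 were higher in both and 6 lower. KDM4B, the enzyme named in the series title, had log2 signals of 9.10 and 9.0 in NB1691 and 9.29 and 9.95 in SKNBE2. These are of its brightest probe set, whose direction differed between the lines. Of the 5 counted probe sets of KDM4B, 1 was higher and 1 lower in both lines. The mean of all 8 changed by -0.16 in NB1691 and 0.17 in SKNBE2, a mean change of 0 for KDM4B. Its relatives KDM4A and KDM4C had 0.26 and 1.09 and 0.10 and 0.63, and of the 4 probe sets of KDM4C 1 was higher and 2 were lower in both lines. KDM3A, a demethylase and HIF target, had 8.58 and 9.51 in NB1691 and 7.89 and 9.28 in SKNBE2. KDM1B, which uses a flavin instead of iron, had -0.70 and -0.66. Averaged over probe sets, the mean change was 0.03 for KDM4C, 0.41 for KDM3A and -0.27 for KDM1B.

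MYCN transcript was at 12.05 and 11.77 in NB1691 and 12.48 and 12.53 in SKNBE2, a mean of -0.12 ± 0.22 with opposite directions in the lines. Of its 4 probe sets, 1 was higher and 2 were lower in both. MYC had changes of 0.58 and 0.62 at levels of 2.66 to 3.28, around or under the level required of a tested gene, with a probe set mean of 0.29. MYCL, the third family member, had -1.84 and -0.70. MXD1, a MAX partner that opposes MYC proteins, had 7.47 and 8.33 in NB1691 and 5.96 and 7.46 in SKNBE2, with both probe sets higher in each line. Of 13 MYC, MAX and MXD factors, 3 were higher in both lines (23.1%, against 26.9% of all genes), 3 lower (23.1%, against 30.1%) and 7 split.

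HPDL, a mitochondrial dioxygenase-like enzyme of coenzyme Q synthesis, led the genes lower in both lines. Its log2 signal was 7.58 and 5.6 in NB1691 and 5.71 and 3.31 in SKNBE2, a mean of -2.19 ± 0.23. ARAP2, a regulator of small GTPases, had 9.14 and 6.76 in NB1691 and 6.84 and 4.96 in SKNBE2, a mean of -2.13 that was -0.67 as the probe set mean. H4C11, a histone H4 gene, had 10.84 and 8.81 and 8.25 and 6.32, but histone H4 genes are near-identical copies and their probe sets may share RNA. DLEU2, the non-coding host of the miR-15a and miR-16-1 cluster, had -1.63 and -1.93 with 5 of 6 probe sets lower in both lines and a probe set mean of -0.53 over 9 probe sets. The surface proteins ACE, a peptidase that makes angiotensin II, NT5E, an enzyme that makes adenosine, and OPN3, an opsin, had -2.19 and -1.54, -1.59 and -1.42, and -1.45 and -2.54. NMI, which binds MYC proteins and STATs, had -1.60 and -1.51. The probe set mean was -0.93 for ACE and -0.87 for NT5E.

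The remaining genes of the 15 furthest below vehicle included several non-coding RNAs. OLMALINC had -1.55 and -1.39, FGF14-AS2 -1.38 and -1.45 and LOC646934 -1.35 and -1.34, with little difference between the lines. MIR9-1HG, the host of a miR-9 precursor, had -1.32 and -1.57, but of its 3 probe sets 1 was lower and 1 higher in both lines. The coding genes were LNP1 at -1.37 and -1.52, SPA17, a sperm surface protein also found in other cells, at -2.16 and -1.35, and SLC66A3 at -1.71 and -1.33. Averaged over probe sets, the mean change was -0.36 for MIR9-1HG and -0.53 for SLC66A3.

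Several genes of the 53 encode mitochondrial or tRNA-modifying proteins, and they were chosen after their values were seen. NDUFAF3, an assembly factor of complex I, had -1.17 and -1.13. RTN4IP1, a mitochondrial oxidoreductase, had -1.35 and -1.11. BCKDHB and GCDH, which break down branched-chain amino acids and lysine, had -2.20 and -1.03 and -1.25 and -1.08, each with both probe sets lower in both lines. QTMAN and QNG1, which act on the tRNA base queuosine and its salvage, had -1.18 and -1.23 and -1.46 and -1.30, with probe set means of -0.45 and -0.86. Of the 34 tested respiratory chain genes, 20 were lower in both lines (58.8%, against 30.1% of all genes) and 2 higher (5.88%, against 26.9%). The sizes were small, with medians of -0.18 in NB1691 and -0.08 in SKNBE2. SDHC, a subunit of succinate dehydrogenase, had -0.67 and -0.41 with all 5 probe sets lower in both, and NDUFV2, an iron-sulfur subunit of complex I, -0.42 and -0.44.

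Of 38 ribosome biogenesis genes, 21 were lower in both and 4 higher, against 30.1% and 26.9% of all genes, with POLR1A, the large subunit of RNA polymerase I, at -0.73 and -0.75, NOP56, a nucleolar protein, at -0.90 and -0.56 and UTP20 at -1.50 and -0.57. EIF5A had 11.37 and 10.60 in NB1691 and 11.08 and 10.45 in SKNBE2, with all 4 probe sets lower in both lines, while DOHH, the iron enzyme that matures it, had 0.67 and 0.08 with a probe set mean of 0.06. Of 21 cytosolic ribosomal proteins, 15 were higher in both lines (71.4%, against 26.9% of all genes) and 3 lower, but the medians were 0.02 in NB1691 and 0.04 in SKNBE2, and 11 were higher in both after quantile normalization and 13 after centring each array on its median. RPL3, of the large subunit, had 0.05 and 0.17, and RPL23, of the same subunit, -0.44 and -0.96. Nucleotide synthesis had 11 of 24 members lower in both (45.8%, against 30.1%) and 3 higher (12.5%, against 26.9%). The lower members were led by DHODH, the mitochondrial pyrimidine enzyme, at -0.97 and -0.82.

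Most mitosis and replication genes had opposite directions in the 2 lines. Of 39 mitosis genes, 27 were higher in NB1691 and lower in SKNBE2, with medians of 0.15 and -0.63. In both lines 12 were lower (30.8%, against 30.1% of all genes) and 0 were higher (0%, against 26.9%). Of 40 DNA replication genes, 26 were higher in NB1691 and lower in SKNBE2, with medians of 0.26 and -0.23. The pattern held in 21% of all genes, and the difference between lines was not tested. MKI67, a proliferation marker, had log2 signals of 8.50 and 10.17 in NB1691 and 8.91 and 8.84 in SKNBE2, and its mean of 0.80 was 0.03 as the probe set mean. CENPE, a kinetochore motor, was lower in both at -0.95 and -1.39, as was HMMR, a spindle protein, at -0.67 and -1.80. CDT1, a licensing factor of replication, was higher in both at 1.53 and 0.84.

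**Figure D4:**
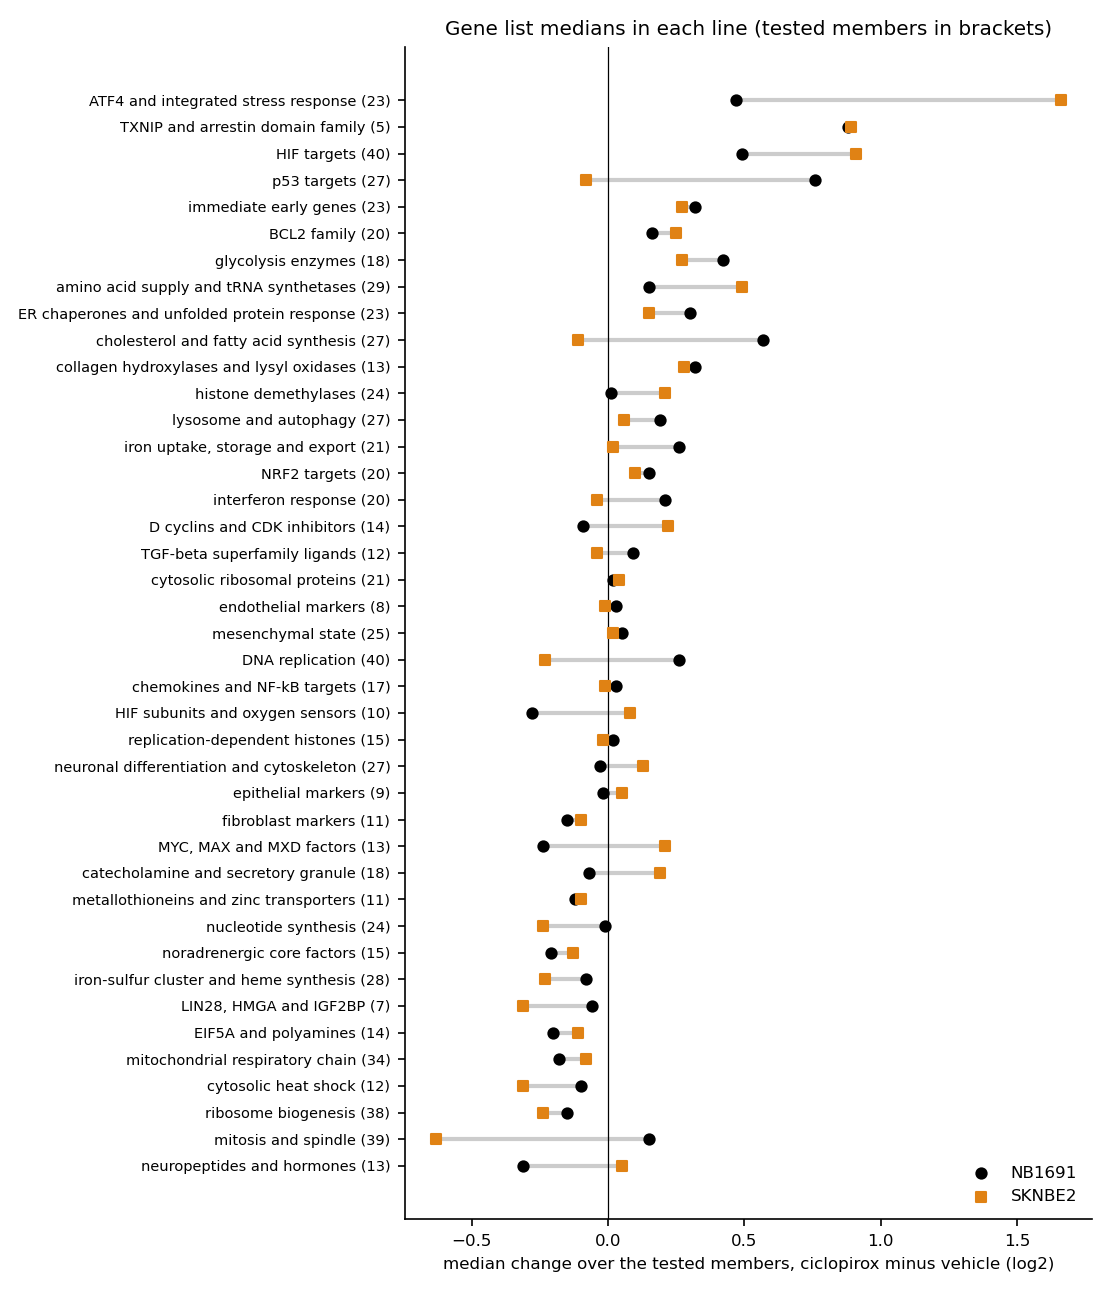
Median change (ciclopirox minus vehicle, log2) over the tested members of each list, in NB1691 (black circles) and SKNBE2 (orange squares), for the lists with at least 5 tested members. Grey bars join the lines. The ATF4 list has the widest gap on the positive side, 0.47 and 1.66, and p53 targets and mitosis lie on opposite sides of 0 in the 2 lines.

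Neuronal and endocrine genes had small list medians. The noradrenergic core factors had 7 of 15 members lower in both lines (46.7%, against 30.1% of all genes) and 2 higher (13.3%, against 26.9%). MEIS2 had -0.83 and -0.26 and HAND2 -0.67 and -0.28, both factors of the sympathetic program, and the repressor TBX2 had 0.77 and 0.53. Of 18 catecholamine and secretory granule genes, 7 were higher in both lines (38.9%, against 26.9% of all genes) and 4 lower (22.2%, against 30.1%). The granule protein SCG2 had 0.59 and 0.83, the vesicle calcium sensor SYT1 0.31 and 0.49 and the peptide amidating enzyme PAM 0.30 and 0.62. TH, the first enzyme of catecholamine synthesis, had -0.84 and -0.17, and MAOA, which degrades catecholamines, -1.22 and -0.63 with all 3 probe sets lower in both and a probe set mean of -0.61. Of 13 neuropeptides and hormones, 4 were higher in both lines (30.8%, against 26.9% of all genes) and 3 lower (23.1%, against 30.1%). CRH had 0.22 and 1.93, CALCB 0.42 and 1.19 and CARTPT 0.77 and 0.12, while NPY had -0.44 and -1.34 and GAL -0.57 and -0.69 with a probe set mean of -0.38 for GAL. NEFH, the heavy neurofilament, was lower at -1.56 and -1.12 with both probe sets lower in each line, while STMN4, a neuronal microtubule regulator, was at 2.82 and 0.39.

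The response in the SKNAS-derived lines was set beside that of NB1691 and SKNBE2 over all 8 arrays. These 2 lines share an origin and are not independent. The difference between the 2 responses was called by limma for 5 genes (0.0344%), all of them lower in NB1691 and SKNBE2 than in the SKNAS-derived lines. They were the chemokines CXCL8 (difference -6.28, adjusted p = 0.0114), CCL20 (-6.99, adjusted p = 0.0159) and CXCL11 (-4.44, adjusted p = 0.0252), the hyaluronidase CEMIP (-4.80, adjusted p = 0.0252) and the prostaglandin synthase PTGS2 (-3.52, adjusted p = 0.0419). CXCL11 and PTGS2 were named after their values were seen. In NB1691 and SKNBE2 the 5 genes had log2 signals between 2.54 and 3.52 on every array, around the level of 3.21 required of a tested gene. That level was required of a mean over all 8 arrays, which includes the SKNAS-derived arrays with ciclopirox where the 5 genes were high. With the level set over the 4 MYCN-high arrays, limma called CCL20 alone (adjusted p = 0.029). In SKNAS, CEMIP and CXCL11 began at vehicle signals of 3.71 and 2.72 and had 8.47 and 7.02 with ciclopirox, so a value higher than vehicle could be read from such a level and a lower one could not. Limma called 0 without NB1691, without SKNBE2 or without SKNAS/shHIF1a, and 1643 genes (11.3%) had an unadjusted p under 0.05 with all arrays.

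The list of chemokines and NF-kB targets had medians of 0.03 in NB1691 and -0.01 in SKNBE2 against 2.57 in SKNAS and 3.10 in SKNAS/shHIF1a. All 17 tested members, of 20 matched, were higher in both SKNAS-derived lines, against 32.4% of all genes. The mean that set the level for testing included the SKNAS-derived arrays with ciclopirox. A member could pass by being high there, so the filter may have shaped the count of 17. In the MYCN-high lines 4 of the 17 were higher in both (23.5%, against 26.9% of all genes) and 4 lower (23.5%, against 30.1%). Of the 17, 10 had a vehicle mean over NB1691 and SKNBE2 that reached the level required of a tested gene. The medians of 0.03 and -0.01 therefore rest partly on genes under that level, where a lower value could hardly be read. TNFAIP3, a feedback inhibitor of NF-kB, had -0.69 and -0.55 in NB1691 and SKNBE2 (probe set mean -0.40) against 2.16 and 1.76 in the others (adjusted p of the difference 0.112 in limma). Of 11 metallothioneins and zinc transporters, 2 were higher in both MYCN-high lines (18.2%, against 26.9% of all genes) and 4 lower (36.4%, against 30.1%). In the SKNAS-derived lines 6 were higher in both and 1 lower, against 32.4% and 38% of all genes. The difference between these counts was not tested. The metallothioneins bind zinc and copper. MT2A had -1.03 and -0.64 against 0.91 and 2.53, and MT1X -0.99 and -1.08 against 0.50 and 1.34 (limma adjusted p of 0.24 and 0.205), while MT1G had 0.53 and 0.32 against -0.25 and 0.88. The metallothionein genes are close copies, so probe sets may share RNA. HIF targets had higher medians in the SKNAS-derived lines, 1.59 and 0.93, and stress response genes lower ones, 0.37 and 0.23, with 0 members of either list called for the difference.

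Of the 68 genes at least 2-fold higher in NB1691 and SKNBE2, 41 (60.3%) were also higher in both SKNAS-derived lines, against 32.4% of all genes tested. At least 2-fold higher there were 18, against 358 of the 14517 genes tested, and 6 were lower in both, against 38%. Of the 53 lower genes, 37 (69.8%) were also lower in both, against 38% of all genes, and 9 were higher in both, against 32.4%. At least 2-fold lower in both were 6, against 120 of the 14517. GDF15 had 1.14 in SKNAS and 2.57 in SKNAS/shHIF1a. CSTA had 0.02 and 0.35, COXFA4L2 0.09 and 0.03, and HRK -0.08 and -0.99, with differences between the responses of 3.61, 2.93 and 2.91 (limma adjusted p of 0.129, 0.0664 and 0.157). COXFA4L2 was called for the difference when limma used an intensity trend (adjusted p = 0.045) or the mean of probe sets (adjusted p = 0.0387). BHLHE40 had 2.99 and 3.30 and CDKN1A 2.89 and 3.20, larger in each SKNAS-derived line than in either MYCN-high line, with adjusted p of 0.205 for each difference in limma.

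**Figure D5:**
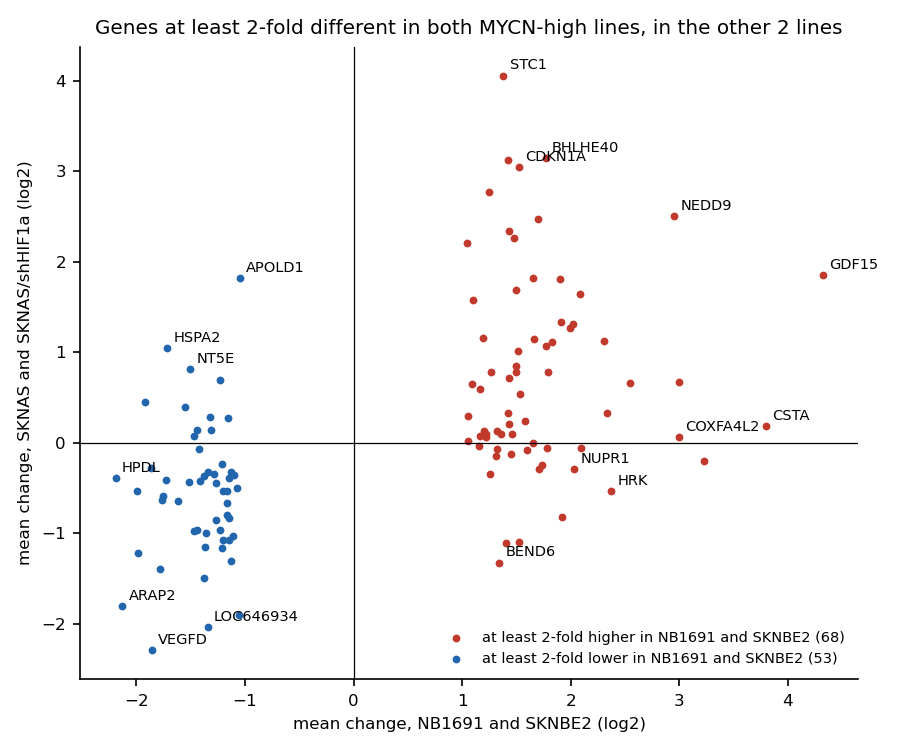
Mean change in NB1691 and SKNBE2 (horizontal axis, log2) against mean change in SKNAS and SKNAS/shHIF1a (vertical axis, log2) for the 68 genes at least 2-fold higher (red) and the 53 at least 2-fold lower (blue) in both MYCN-high lines. CSTA, COXFA4L2 and HRK lie near or below 0 on the vertical axis, and STC1, BHLHE40 and CDKN1A lie high on it.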

How the data were processed

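Total RNA from 4 neuroblastoma lines, 1 vehicle and 1 ciclopirox array each, was measured from 100 ng on Affymetrix 3′ arrays. The values are log2 signals deposited by the authors, normalised with RMA per the submitters' processing notes; software versions and annotation are not given in the sources used here, and the array scanner files were not used here. RMA equalises the distribution of signals between arrays, so a shift of all genes would not be seen. Of 54715 probe sets, 40914 carried 1 gene symbol in the platform annotation, 864 several and 12835 none, and 102 were controls. Each of 19774 genes was read from its brightest probe set over all 8 arrays, and 14517 genes whose mean reached the 40th percentile of all probe set means (3.21) were tested. The fit for NB1691 and SKNBE2 was ciclopirox minus vehicle with the cell line as a block (limma 3.58.1 in R 4.3.3, lmFit and eBayes, 1 residual and 4.05 prior degrees of freedom, Benjamini-Hochberg over all genes). The pairing comes from the cell line: the difference between the lines correlated between vehicle and ciclopirox arrays with r = 0.847 across genes. The comparison with the SKNAS-derived lines used all 8 arrays, the line as a block and the difference of the 2 responses (2 residual and 3.29 prior degrees of freedom). The fits were tested on simulated data. P-values measure only the spread between these samples, with the variance of each gene moderated towards that of all genes tested.

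The genes named are the 15 with the largest smaller change in each direction, up to 3 members each way of each of 43 gene lists (902 of 960 entries matched), a fixed set of MYC, KDM4, HIF, iron and stress genes, the leading genes of the difference between origins and those furthest apart between the lines. The sympathetic markers, the genes at the edge of the 2-fold threshold, ATF4 and EGLN3 were named besides these. Any other gene is marked in the text as picked with its values known. The members and the lists were chosen with earlier results of these data known. Alternatives covered the level filter, the arrays that set it, the probe set rule, array scaling, moderation, thresholds, the block and leaving out lines. Promoters came from RefSeq (GRCh38.p14), matched by symbol for 11666 of the tested genes.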

Additional observations from a re-analysis of the deposited data

Results flagged for a closer look

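For 5 genes the response of the MYCN-high lines differed from that of the SKNAS-derived lines by the limma test of the difference: CXCL8 (-6.28), CCL20 (-6.99), CEMIP (-4.80), CXCL11 (-4.44) and PTGS2 (-3.52, MYCN-high minus SKNAS-derived). These 5 genes lay around the level filter in the MYCN-high lines, and the mean used by the filter included the SKNAS-derived arrays. For 6 genes NB1691 and SKNBE2 had changes in opposite directions, and the difference between the lines was not tested because each line has 1 array per treatment. PCIF1, an mRNA cap methyltransferase, had changes of 2.11 in NB1691 and -1.26 in SKNBE2, a difference of 3.37. DEPDC7 had 1.06 and -1.11, a difference of 2.17, and GCFC2 1.56 and -0.90, a difference of 2.47. SLC12A3, a sodium chloride cotransporter, had -2.19 and 1.98, a difference of -4.16. IGFBP3, which binds insulin-like growth factors, had -1.97 and 1.65, a difference of -3.62, and MIR100HG, the host of miR-100, had -1.82 and 1.55, a difference of -3.37.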

How the results depend on the processing

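Without the pairing by cell line (no replicate block) limma called 0 genes, with 188 at an unadjusted p under 0.05 and a smallest adjusted p of 1. The count of 0 became 1 with the 60th percentile filter or a threshold of 0.1 and 3 with an intensity trend. The 68 higher and 53 lower genes became 40 and 29 with the mean of probe sets, 129 and 81 with every probe set alone, 317 and 303 at 1.5-fold, 7 and 0 at 4-fold, and 306 to 481 and 181 to 743 within a single line, where fewer arrays must pass. The 5 differences between origins became 1 with levels over the 4 arrays, 9 with the mean of probe sets, 2 with every probe set alone, 13 at 0.1, and 0 without NB1691, SKNBE2 or SKNAS/shHIF1a. No other alternative run moved these 4 counts by over 1.5 times. Of 264 alternatives for part of the named genes, 14 reversed a mean change, all for genes with opposite changes in the lines. Within a single line the values ranged from -0.29 to 0.05 for MYCN, -0.10 to 0.66 for KDM4B, -0.13 to 0.07 for HIF1A, -0.08 to 0.23 for MDM2, -0.07 to 1.67 for MKI67, -1.26 to 2.11 for PCIF1, -1.11 to 1.06 for DEPDC7, -0.90 to 1.56 for GCFC2, -2.19 to 1.98 for SLC12A3, -1.97 to 1.65 for IGFBP3 and -1.82 to 1.55 for MIR100HG. With the mean of probe sets GCFC2 was -0.04, IGFBP3 0.03 and MIR100HG 0.21, which the construction of that mean gives. Among list members outside those alternatives, that mean also reversed some small changes shared by both lines. Examples are ERBB3, at -0.33 and 0.06 as the probe set mean, and IGF2BP1, at -0.29 and 0.15. Of the 30 genes furthest from vehicle, 14 had a mean change smaller by over 1.5 times with the mean of probe sets, such as ACTA2 at 0.85 against 2.55, and the sign stayed the same in each of the 14. Of 210 list medians under alternatives, 29 moved by more than the spread between lines. With 2 lines and 1 array for each treatment, a signal near the level filter bounds the fold of low genes.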

Other observations

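Among lists not described above, cholesterol and fatty acid synthesis had medians of 0.57 in NB1691 and -0.11 in SKNBE2, with 12 of 27 members higher in NB1691 and lower in SKNBE2, against 21% of all genes. The regulator SREBF2 had 0.37 and 0.41 and the desaturase FADS1 0.57 and 0.29, while PMVK, of the mevalonate pathway, had -0.91 and -0.74. Lysosome and autophagy genes were higher in both MYCN-high lines in 12 of 27 cases (44.4%, against 26.9% of all genes) and lower in 8 (29.6%, against 30.1%), and higher in both SKNAS-derived lines in 21, against 32.4% of all genes there, a difference that was not tested. They included the sialidase NEU1 at 0.92 and 0.52 in NB1691 and SKNBE2 and the carboxypeptidase CTSA at -0.63 and -0.87. Among interferon response genes, 6 of 20 were higher in both MYCN-high lines (30.0%, against 26.9% of all genes) and 2 lower (10.0%, against 30.1%), with the transcription factor IRF1 at 1.07 and 1.42 and the nuclease ISG20 at 1.60 and 0.60. A vehicle mean over NB1691 and SKNBE2 at the level required of a tested gene was found for 13 of the 20.

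Among markers of the mesenchymal state, 9 of 25 were higher in both MYCN-high lines (36%, against 26.9% of all genes) and 8 lower (32%, against 30.1%). In the SKNAS-derived lines 19 were higher in both and 1 lower, against 32.4% and 38% of all genes, and the difference between the 2 pairs of lines was not tested. A vehicle mean over NB1691 and SKNBE2 at the level required of a tested gene was found for 17 of the 25. Under that level a lower value could hardly be read. The intermediate filament VIM had 0.63 and 0.98 and the repressor SNAI2 1.78 and 0.59, while the galectin LGALS1 had -0.86 and -0.71 and the hyaluronan receptor CD44 -0.96 and -1.08. Of the 9 counted probe sets of CD44, 2 were higher and 3 lower in both lines, and the mean of all 13 gave -0.06. The same mean gave 0.46 for VIM. REST, a repressor of neuronal genes that was chosen after its values were seen, had 1.10 and 1.33, with 1 of 3 probe sets higher in both lines and a mean over probe sets of 0.55.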
